A study of Mus musculus with 4 samples.

Results

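The genes described here are 2 neurotrophins, the growth factors Bdnf and Ntf3, the receptors that bind neurotrophins or their precursors (Ntrk2, Ntrk3, Ngfr and Sort1), and Creb1, a transcription factor activated downstream of them. They were chosen by symbol, and all 7 of 7 listed genes were found among the 29300 genes of the deposited table and passed the filter on low counts. Hippocampal tissue of male C57BL/6 mice aged 7 to 8 months was sequenced on day 1 after the procedure. The 2 control mice (sham) received isoflurane anesthesia and tramadol analgesia only, and the 2 surgery mice received the same anesthesia and analgesia with an open tibial fracture fixed by an intramedullary nail, a model of perioperative neurocognitive disorders (PNDs). Both groups thus received anesthesia and analgesia, and no untreated mice are among the samples.

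Neurotrophins are made as precursors that are cut to mature dimers. The mature dimers signal through the Trk receptor tyrosine kinases: brain-derived neurotrophic factor (BDNF) through TrkB, the product of Ntrk2, and neurotrophin-3, the product of Ntf3, mainly through TrkC, the product of Ntrk3. The precursors bind the p75 receptor, the product of Ngfr, together with sortilin, the product of Sort1. In the hippocampus, BDNF and TrkB are known for their part in long-term potentiation and memory. Trk signalling leads through kinases to phosphorylation of CREB, the product of Creb1, which binds cAMP response elements (CREs) of its target genes, Bdnf among them.

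Stretches before annotated starts of Creb1, the gene with the largest difference among the 7, and of Bdnf, the ligand gene that CREB is known to act on, are shown for reference. They were taken from RefSeq (GRCm38.p6, the assembly of mm10), plus strand, with the short CRE motif CGTCA, or its complement TGACG, in capitals where it occurs.
Bdnf, chr2:109692186-109692435: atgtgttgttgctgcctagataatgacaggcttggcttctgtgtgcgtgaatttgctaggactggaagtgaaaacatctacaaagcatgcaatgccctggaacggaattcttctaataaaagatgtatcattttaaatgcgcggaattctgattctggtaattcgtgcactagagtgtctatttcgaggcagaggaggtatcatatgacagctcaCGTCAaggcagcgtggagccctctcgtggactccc
Creb1, chr1:64532554-64532644: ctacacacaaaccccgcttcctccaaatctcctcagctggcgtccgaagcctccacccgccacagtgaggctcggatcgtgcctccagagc
The Creb1 stretch is the part of its RefSeq window that lies upstream of the first annotated base of the gene, and it is shorter because the RefSeq start of this window lies inside the annotated gene. The Bdnf stretch is the 250 bases before the start site of the third of 7 RefSeq start windows of this gene, and its motif begins 35 bases before that site. This stretch was picked because its window is the only one of the 7 that holds the motif. It lies inside the annotated gene, before an internal start. The other 6 windows of Bdnf, each of 300 bases, and the window of Creb1 hold neither form of the motif. Of the 32851 windows of all genes, 20.8% hold the motif on either strand and 1.79% hold the full element TGACGTCA, which contains both of its forms. Windows were found for 5 of the 7 genes, and those of Ntf3, Ntrk2 and Ngfr do not hold it. A match is a string of letters and not a measured binding site.

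Among the 7 genes, Creb1 and Ntrk3 were higher in surgery mice by edgeR's quasi-likelihood test, and none was lower. This was 2 of 7 genes, against 26.0% of all genes called in either direction. Creb1 rose 1.88-fold and Ntrk3 rose 1.14-fold, while Bdnf, Ntf3, Ntrk2, Ngfr and Sort1 did not pass at an adjusted p-value of 0.05. Of all 17144 genes tested, 13.1% were higher and 12.8% lower at this threshold. For the 7 genes, 3 had an unadjusted p-value under 0.05 by edgeR (Creb1, Ntrk3 and Bdnf), all with a positive difference. Of all 17144 genes tested, 6748 passed this unadjusted threshold in either direction. DESeq2 and limma-voom likewise called 2 of the 7 higher and 0 lower. Only Creb1 was a differentially expressed gene (DEG), a term kept for genes that pass the test and reach 1.5-fold upwards or fall to 0.67 of the control level or below. Of all genes tested, 6.75% were higher DEGs and 2.25% lower DEGs. The median log2 fold change was 0.19 over the 7 genes and 0.01 over all genes tested. The groups did not overlap for 4 of the 7 genes (3 higher in both surgery mice and 1 lower), against 65.5% of all genes tested. Values are given as CPM, counts per 1000000 counts of the TMM-scaled library, and differences as the log2 fold change of surgery over control mice with its standard error (SE).

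**Figure D1:**
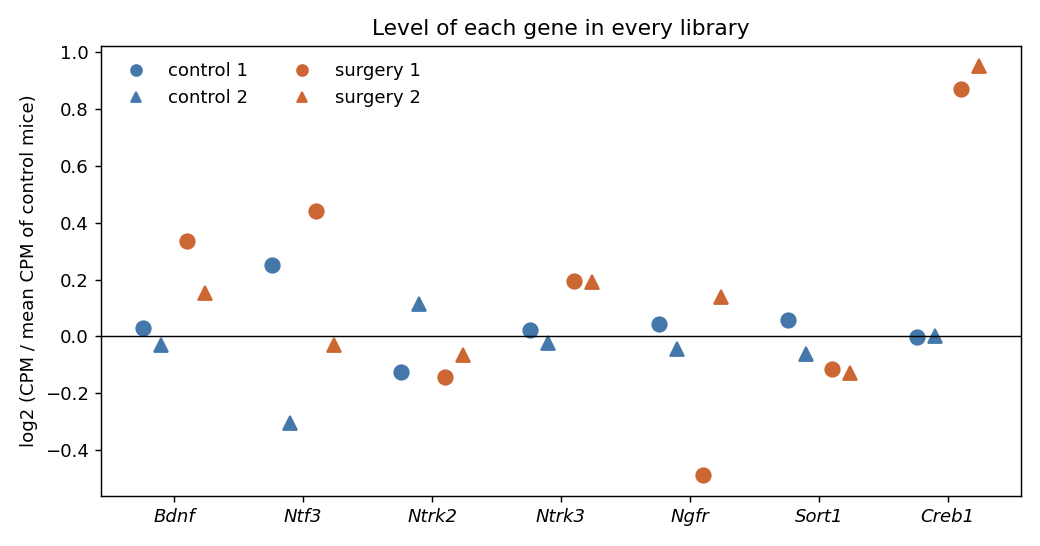
Level of each of the 7 genes in every library, as log2 of the CPM over the mean CPM of the 2 control mice (y axis), with circles for replicate 1 and triangles for replicate 2. Both surgery mice lie above both control mice for Creb1, Ntrk3 and Bdnf and below them for Sort1, while the groups overlap for Ntf3, Ntrk2 and Ngfr.

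The sequencing depth was 15763432 to 18573386 counts per library. Mitochondrially encoded genes other than rRNA took 2.53% to 2.82% of the counts in control mice and 4.45% to 4.49% in surgery mice. The log2 fold change over all genes moved with the GC content of the annotated transcripts. When the genes were cut into 8 equal bins of GC content, the median was 0.60 in the lowest bin, where 50.2% of the genes were higher, and -0.34 in the highest, where 38.3% were lower. A correction in which each library's trend with transcript length and GC content entered the fit as an offset left 2.44% of all genes called, 1.45% higher and 0.986% lower, and 0.706% as higher DEGs. Of the 7 genes 1 was called with it, Creb1, which was then not a DEG. Corrected values are therefore given below as well, and the origin of the trend was not tested.

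Among the ligands, Bdnf had 518 and 527 counts in control mice and 592 and 552 in surgery mice. On the CPM scale these were 30.1 and 28.8 against 37.1 and 32.7. Both surgery mice were above both control mice, as were the surgery mice for 33.2% of all genes tested. The log2 fold change of Bdnf was 0.25 (SE 0.10, 95% interval 0.0048 to 0.49), a rise of 18.5% in the estimate that did not pass after adjustment (adjusted p = 0.12, edgeR). With the length and GC correction the estimate turned to -0.26 (SE 0.11, 95% interval -0.51 to -0.0061, adjusted p = 0.21), so that neither direction held. The transcripts of Bdnf have a GC content of 40.5%, in the lowest bin, and 83.4% of the genes of this bin had a larger log2 fold change than Bdnf. The gene lies on mm10 chromosome 2, from 109674700 to 109727007, and has 11 annotated transcripts that share the counts, so that its alternative first exons could not be told apart. Exons of the antisense gene Gm45346 overlap 14.4% of the exonic length of Bdnf, and Gm45346 itself had 0 counts in 3 libraries and 1 in the other. The use of strand in the counting is not given, and the effect of the overlap on the Bdnf counts was not tested.

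Ntf3 (mm10 chromosome 6, 126101412 to 126166910), which encodes neurotrophin-3, was measured at low depth, with 108 and 78 counts in control mice and 114 and 87 in surgery mice. This gave 6.27 and 4.27 CPM in control mice and 7.15 and 5.15 CPM in surgery mice. The groups overlapped, and the difference between the 2 mice of a group was larger than that between the group means. Surgery over control, the log2 fold change was 0.22 (SE 0.27, adjusted p = 0.59, edgeR), with a 95% interval from -0.43 to 0.88, and 0.17 with the length and GC correction. In both groups the first mouse was the higher one for Ntf3, and the same held for the summed level of the 5 markers of dentate granule cells (372 and 285 CPM in control mice, 358 and 314 in surgery mice). The part of these markers in the Ntf3 values was not tested.

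Among the related genes, Ntf5, the mouse gene of neurotrophin-4, had 2 to 13 counts per library and did not pass the filter.

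Of the receptors, Ntrk2 (mm10 chromosome 13, 58806569 to 59133970) was measured with 9724 to 13313 counts per library. It had 617 and 728 CPM in control mice and 610 and 643 CPM in surgery mice. The values of the surgery mice lay within or just under the range of the control mice. Its log2 fold change was -0.10 (SE 0.09, adjusted p = 0.43, edgeR), with a 95% interval of -0.31 to 0.11, and it was -0.08 after correction. It was 0.02 without the second control mouse and -0.22 without the first. That second control mouse also had the highest summed level of the 5 choroid plexus markers, 5329 CPM against 121 in the other control mouse and 1993 and 3390 in the surgery mice, most of it from Ttr. Astrocytes express the truncated form of TrkB. The summed level of the 8 astrocyte markers was 4638 to 4705 CPM in control mice and 4760 to 5005 in surgery mice. These markers went both ways, with 3 higher and 2 lower, and their median on the log2 scale was -0.02. Slc1a2, the largest part of the sum, had 2276 and 2154 CPM in control mice and 2780 and 2625 in surgery mice. Aldoc had 1059 and 1255 against 824 and 814. The part of the choroid plexus or astrocyte markers in the Ntrk2 values was not tested. The gene has 10 annotated transcripts, and the counts are per gene, so that full-length and truncated TrkB could not be told apart. In bulk tissue, fewer cells of a type and less RNA per cell cannot be told apart either.

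Ntrk3 (mm10 chromosome 7, 78175959 to 78738012) had 255 and 248 CPM in control mice and 288 and 287 CPM in surgery mice. The 2 surgery mice were nearly equal and both lay above the control mice. Its log2 fold change was 0.19 (SE 0.06, adjusted p = 0.046, edgeR), a rise of 14.4% that stood just inside the threshold. It was 0.12 with the length and GC correction (SE 0.05, adjusted p = 0.27). Leaving out any 1 mouse kept the estimate between 0.17 and 0.21 and ended the call each time, with adjusted p-values of 0.11 to 0.21. The median log2 fold change in the GC bin that holds Ntrk3 was 0.18, close to its own value.

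Ngfr (mm10 chromosome 11, 95568818 to 95587735), which encodes the p75 receptor, had 64 and 64 counts in control mice and 41 and 67 in surgery mice, or 3.72 and 3.50 CPM against 2.57 and 3.97. The 2 surgery mice lay on either side of the control mice. The log2 fold change was -0.13 (SE 0.28, adjusted p = 0.76, edgeR), with a 95% interval of -0.81 to 0.54, and 0.22 after correction. At this SE neither a fall nor a rise of this size was detectable. Chat, Slc18a3 and Slc5a7, markers of the basal forebrain cholinergic neurons that are known for high p75 levels, summed to at most 1.16 CPM in any library.

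Sort1 (mm10 chromosome 3, 108284082 to 108361511), which encodes the sorting receptor sortilin, was the most abundant of the 7 genes, with 11292 to 13754 counts per library. It had 798 and 734 CPM in control mice and 708 and 701 CPM in surgery mice, so that both surgery mice were below both control mice, as for 32.2% of all genes tested. For Sort1 the log2 fold change was -0.12 (SE 0.06, adjusted p = 0.21, edgeR), with a 95% interval of -0.27 to 0.03, and -0.05 after correction. Of its sortilin-family relatives, Sorcs2, whose product is a p75 partner for the BDNF precursor, fell from 95.7 and 105 CPM in control mice to 70.7 and 63.1 CPM in surgery mice. Its log2 fold change was -0.58 (SE 0.09, adjusted p = 0.0066, edgeR) and -0.31 after correction (adjusted p = 0.093).

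Creb1 (mm10 chromosome 1, 64532645 to 64604548) had 512 and 544 counts in control mice and 868 and 970 in surgery mice. On the CPM scale these were 29.7 and 29.8 against 54.4 and 57.5. The 2 control mice were nearly equal, and both surgery mice were far above them. The log2 fold change was 0.91 (SE 0.08, 95% interval 0.72 to 1.10, adjusted p = 0.0043, edgeR). With any 1 mouse left out it stayed between 0.88 and 0.94, and the gene passed the test in all 15 alternative settings, with adjusted p-values from 1.6e-09 to 0.029. With the length and GC correction it was 0.56 (SE 0.08, 95% interval 0.38 to 0.75, adjusted p = 0.029), a fold change of 1.48, which is under the DEG threshold of 1.5. The GC content of its transcripts is 42.6%, in the lowest bin, where 21.3% of the genes had a larger log2 fold change. The values describe transcripts, and neither CREB protein nor its phosphorylation was measured.

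The closest relatives of Creb1, Crem and Atf1, did not pass the test. Crem, which encodes both activators and repressors of CRE-dependent transcription, had 11.96 and 9.08 CPM in control mice and 11.3 and 11.1 CPM in surgery mice, with a log2 fold change of 0.09 (SE 0.18, adjusted p = 0.73, edgeR). Its estimate was -0.19 with the length and GC correction. Atf1, a CREB paralog, had 11.03 and 11.4 CPM in control mice and 12.4 and 11.9 CPM in surgery mice, with a log2 fold change of 0.11 (SE 0.13, adjusted p = 0.59, edgeR) and of 0.10 after correction. Of the 75 nt windows of the Atf1 transcripts, 7.54% also occur in other genes, against 0.0071% for Creb1. The 95% interval of Atf1, -0.21 to 0.43, lay below that of Creb1, whereas with the correction the intervals of both genes overlapped (-0.22 to 0.42 and 0.38 to 0.75). The difference between the genes was not tested.

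**Figure D2:**
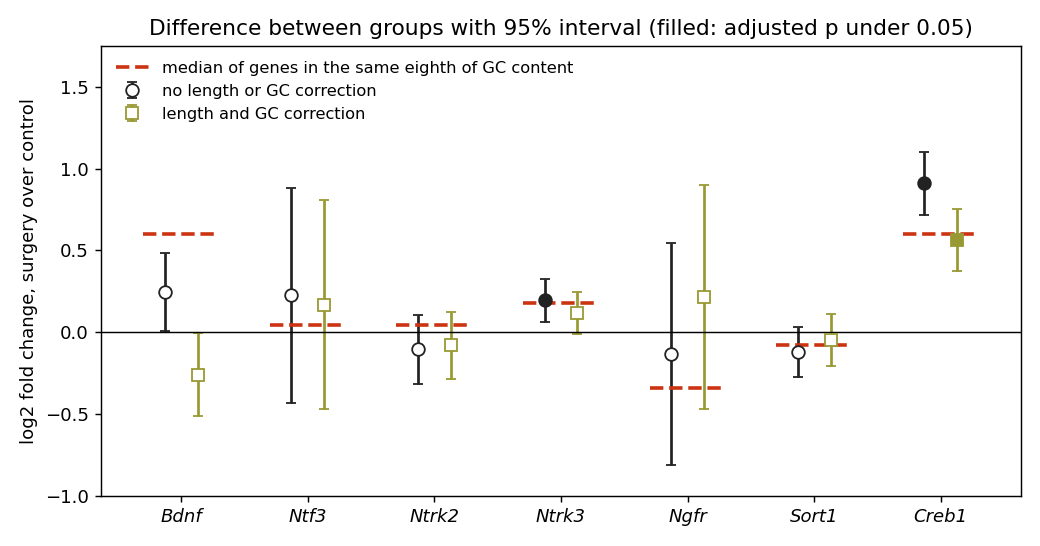
Log2 fold change of surgery over control mice for each gene (y axis) with its 95% interval, without a correction (circles) and with the length and GC correction (squares), filled where the adjusted p-value is under 0.05. Red dashes give the median of all genes in the same bin of GC content. Creb1 stays above 0 in both fits, at 0.91 and 0.56, whereas Bdnf changes sign, from 0.25 to -0.26.

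Levels of different genes were compared per kb of exonic length. In control mice, Sort1 had the highest level with 101 ± 6.00 CPM per kb (SD, n = 2), followed by Ntrk2 with 34.9 ± 4.07, Ntrk3 with 8.33 ± 0.179 and Bdnf with 4.74 ± 0.141. The ranges of these 4 genes did not overlap. Atf1 (3.67 ± 0.0935 CPM per kb) and Ntf3 (3.07 ± 0.826) followed, and their ranges overlapped. Creb1 stood at 2.16 and 2.17 CPM per kb in the control mice, below both values of Atf1. In surgery mice it had 3.96 and 4.18 CPM per kb, and Atf1 had 4.06 and 3.87, so that the ranges of both genes overlapped there. Ngfr was the lowest of the 7 genes with 1.05 ± 0.0439 CPM per kb in control mice.

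**Figure D3:**
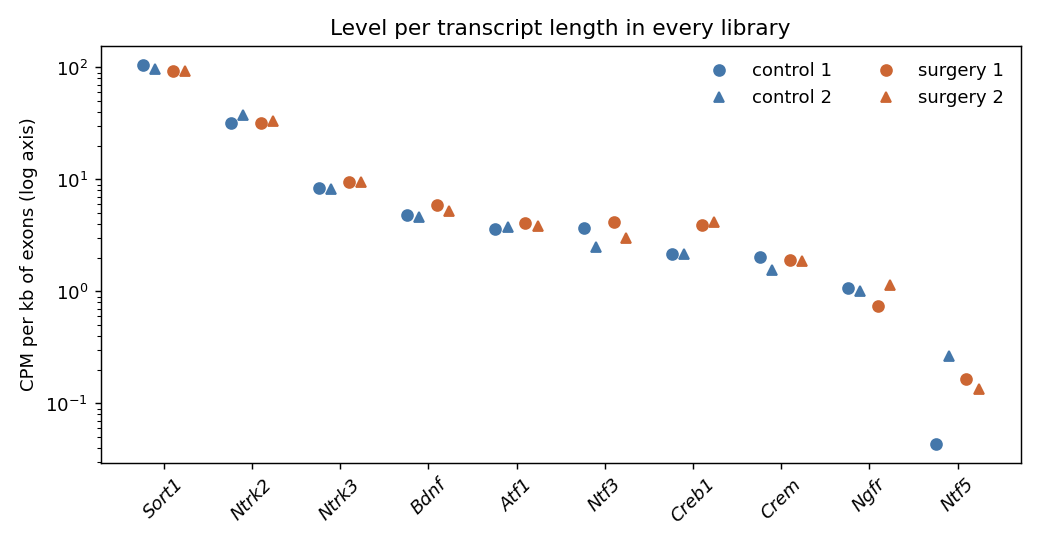
Level of the 7 genes and of related genes (Ntf5, Crem and Atf1) in every library, as CPM per kb of exonic length (y axis, log scale), ordered by the mean of the control mice. Sort1 and Ntrk2 lead in all 4 libraries, and Creb1 is the gene whose surgery mice stand clearly apart, at 3.96 and 4.18 against 2.16 and 2.17 in the control mice.

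The other genes of the pathway were described by 9 lists, which hold 146 genes of the table besides the 7, of which 141 were tested. Of these, 23 were higher and 29 lower (16.3% and 20.6%, against 13.1% and 12.8% of all genes), with a median log2 fold change of -0.08. Leaving out the second control mouse reduced these counts to 11 higher and 19 lower. With the length and GC correction 3 were higher (Ptn, Camk4 and Vegfa) and 0 were lower by edgeR. At an unadjusted p-value under 0.05 the counts were 23 and 14, against 3874 of all 17144 genes in either direction. The total of 3874, and 6748 before the correction, are the background for the unadjusted counts of the lists below. Without the correction, DESeq2 called 23 higher and 32 lower and limma-voom 22 and 30. The edgeR shares of all genes, 13.1% higher and 12.8% lower, are also the background for each list below.

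Among the ligands and the enzymes and carriers that process them, 0 of 13 tested genes passed in edgeR and limma-voom, with 3 in each direction at an unadjusted p-value under 0.05, and DESeq2 called 1 lower, Hap1, whose product takes part in the transport of the BDNF precursor. In edgeR 1 gene was lower without the first control mouse or either surgery mouse, and 1 was higher without the second surgery mouse. The convertase gene Furin stood at a log2 fold change of -0.33 (adjusted p = 0.065) and Pcsk1 at 0.33 (adjusted p = 0.083), both by edgeR, with corrected values of -0.00034 and -0.11. Hap1, Furin and Pcsk1 were chosen here after their values were seen. Of the 11 tested receptors and co-receptors, Ntrk3 was higher and 2 were lower, Sorcs2 and Islr2 (-0.36, SE 0.08, and -0.01 after correction). With the correction 0 of the 11 were called by edgeR (0 higher and 2 lower at an unadjusted p-value under 0.05). In fits without the correction that left out any 1 mouse, Sorcs2 ran from -0.68 to -0.50 and Islr2 from -0.46 to -0.27. The median of this list was -0.12.

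Of the 9 tested adaptors and partners of p75, 0 were higher by edgeR, DESeq2 or limma-voom (2 at an unadjusted p-value under 0.05 by edgeR). In this list 5 genes were lower, against 12.8% of all genes tested by edgeR, and the median was -0.30. Lingo1, a co-receptor of p75 in the Nogo receptor complex, fell from 360 and 359 CPM in control mice to 243 and 226 CPM in surgery mice (log2 fold change -0.62, SE 0.06). The Nogo receptor gene Rtn4r (-0.46, SE 0.09) and Bex3, whose product binds the p75 death domain (-0.42, SE 0.08), fell as well. These genes have a GC content of 59.1%, 62.7% and 53.1%, and after the length and GC correction their log2 fold changes were -0.26, -0.05 and -0.25, with no call among the 9 genes (1 higher and 3 lower at an unadjusted p-value under 0.05, edgeR).

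Trk signalling genes went both ways, with 8 of 41 higher and 9 lower, against 13.1% and 12.8% of all genes tested. The list median was -0.09. The small GTPase genes Rap1b (0.67, SE 0.08) and Rap1a (0.66, SE 0.10) had the largest rises, and their relative Hras (-0.77, SE 0.09) had the largest fall. Hras went from 86.6 and 91.9 CPM in control mice to 56.7 and 48.4 in surgery mice. The phosphoinositide 3-kinase subunit gene Pik3r2 (-0.53, SE 0.07) and the kinase gene Akt1 (-0.45, SE 0.06) also fell. Rap1a and Rap1b have a GC content of 39.3% and 41.0%, and the 3 genes that fell one of 57.6% to 60.9%. Corrected values were 0.20 for Rap1b, 0.06 for Rap1a, -0.44 for Hras, -0.14 for Pik3r2 and -0.09 for Akt1. After correction none of the 41 was called by edgeR, with 4 higher and 3 lower at an unadjusted p-value under 0.05. The count of higher genes was 5 without the second control mouse and also without either surgery mouse, and 4 were lower without the second control mouse and 6 without the second surgery mouse.

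Among the 14 kinase genes upstream of CREB, 4 were higher and 4 lower, against 13.1% and 12.8% of all genes tested. The list median was 0.06. Camk4, a calcium-dependent CREB kinase, rose from 102 and 99.1 CPM to 125 and 145 CPM (0.42, SE 0.08, adjusted p = 0.015, edgeR), and its corrected value was 0.50 (SE 0.09, adjusted p = 0.042). Prkar2b (0.47, SE 0.09), a regulatory subunit of protein kinase A, and Rps6ka3 (0.44, SE 0.12), which encodes the CREB kinase RSK2, also rose. Camkk1 (-0.49, SE 0.06), Prkar1b (-0.46, SE 0.06) and Rps6ka2 (-0.41, SE 0.09) fell. Corrected values of the other 5 ran from -0.24 (Camkk1) to 0.22 (Prkar2b). Of these 6, Camk4 alone passed with the correction. Without the second control mouse 0 of the 14 were higher and 2 lower by edgeR (6 and 4 at an unadjusted p-value under 0.05), and 2 were higher without the second surgery mouse.

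In the CREB family with its coactivators, Creb1 was the 1 higher gene among 11, and 2 were lower, with a median of -0.06. Crtc1, which encodes a coactivator that carries calcium and cAMP signals to CREB, fell from 464 and 477 CPM in control mice to 346 and 346 CPM in surgery mice. Its log2 fold change was -0.44 (SE 0.05, adjusted p = 0.0049, edgeR) and -0.12 after correction (adjusted p = 0.23). Sik3, one of the kinases that hold CRTC proteins in the cytoplasm, fell as well (-0.42, SE 0.06), with a corrected value of -0.21. The histone acetyltransferase genes Crebbp and Ep300 stood at -0.06 and -0.08 (0.06 and -0.05 after correction) and did not pass. Both were chosen here after their values were seen.

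Of the 22 genes known to respond to CREB or BDNF, 2 were higher and 3 lower, with a median of -0.07. Homer1, a postsynaptic scaffold gene, rose from 60.4 and 59.5 CPM in control mice to 118 and 96.0 CPM in surgery mice (0.84, SE 0.11, adjusted p = 0.0050, edgeR). Its corrected value was 0.44 (adjusted p = 0.091, edgeR). Counts are per gene, so that transcript forms of Homer1 could not be told apart. Ppargc1a, which encodes the coactivator PGC-1α, rose too (0.52, SE 0.09). The neuropeptide genes Vgf (-0.54, SE 0.12) and Sst (-0.47, SE 0.12) and the clock gene Per1 (-0.36, SE 0.10) fell. Their corrected values were -0.12, -0.23 and -0.0027, and that of Ppargc1a was 0.32. Fos, the classical CREB target, had 10.9 and 8.86 CPM in control mice and 13.7 and 5.04 CPM in surgery mice, and Arc had 127 and 114 against 159 and 63.3. Both were chosen here after their values were seen. In both genes the 2 surgery mice lay on either side of the control mice (log2 fold changes -0.08 with SE 0.42, and -0.12 with SE 0.37, and 0.14 and 0.24 after correction). The count of lower genes was 9 without the first surgery mouse, 1 without the second and 1 without the first control mouse, and 5 were higher without the second surgery mouse. None of the 22 genes was called after correction by edgeR, with 3 higher and 0 lower at an unadjusted p-value under 0.05.

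Of the 11 genes that encode regulators of Bdnf transcription, 5 were higher and 3 lower, against 13.1% and 12.8% of all genes tested. The list median was 0.24. Rest, a repressor of neuronal genes (0.75, SE 0.19), and the activity-dependent factors Mef2c (0.59, SE 0.07) and Mef2a (0.54, SE 0.08) had the largest rises. Mef2c went from 114 and 115 CPM to 163 and 181 CPM. Mef2c and Mef2a have a GC content of 42.7%, in the lowest bin, where 50.2% of all genes were higher. Usf2 (-0.43, SE 0.10), Mef2d (-0.33, SE 0.05) and Usf1 (-0.32, SE 0.08) fell, and their GC content is 56.4% to 58.0%. Corrected values of the genes named here ran from -0.09 to 0.65. There was no call in the list by edgeR with the correction (5 higher and 1 lower at an unadjusted p-value under 0.05). Without the second control mouse 2 were higher and 1 lower.

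Among 16 tested genes of other neurotrophic factors and their receptors, 4 were higher and 1 lower, with a median of 0.15. Ptn, which encodes the growth factor pleiotrophin, rose from 118 and 108 CPM in control mice to 189 and 205 CPM in surgery mice. Its log2 fold change was 0.80 (SE 0.08, adjusted p = 0.0043, edgeR), and 0.51 after correction (adjusted p = 0.029). The growth factor gene Igf1 rose from 5.05 and 4.54 CPM to 9.03 and 8.06 CPM (0.83, SE 0.19), with a corrected value of 0.54 that did not pass. The neuregulin receptor gene Erbb4 (0.52, SE 0.08, and 0.06 after correction) rose. Cntfr, the receptor gene of ciliary neurotrophic factor (-0.47, SE 0.08, and -0.10 after correction), fell. Vegfa, an angiogenic factor gene named after its values were seen, was the fourth that rose and had a log2 fold change of 0.33 (SE 0.09) and a corrected value of 0.57 (adjusted p = 0.040, edgeR). In this list 2 genes were higher without the second control mouse and 2 without the first surgery mouse.

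**Figure D4:**
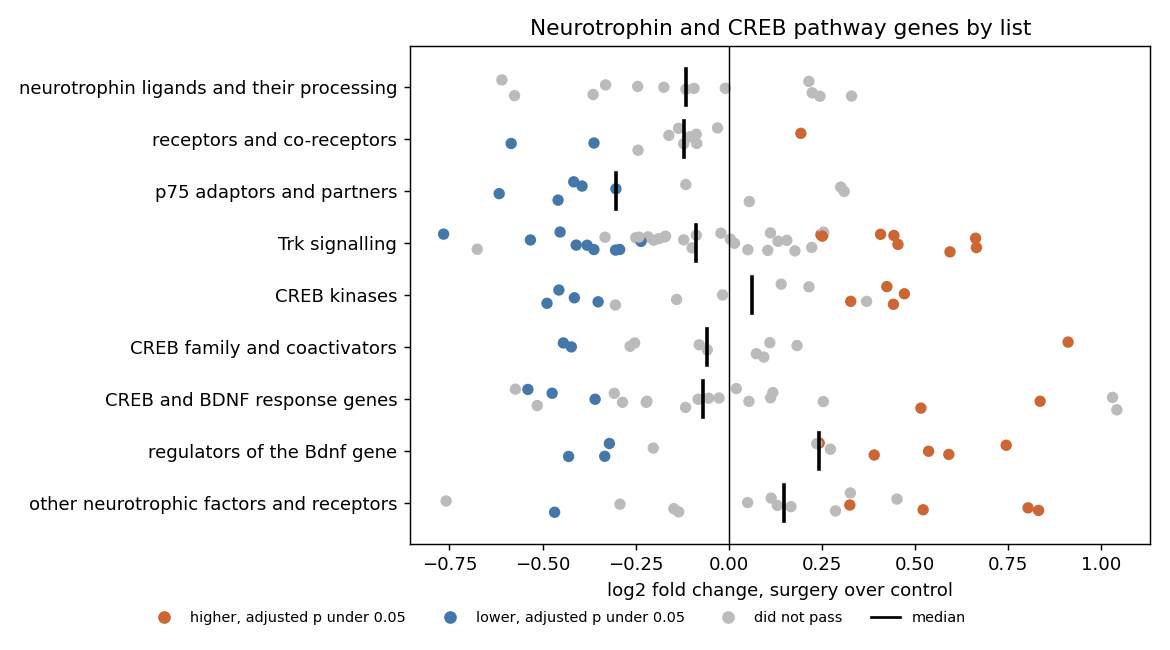
Log2 fold change of surgery over control mice (x axis) for every tested gene of the 9 pathway lists, the 7 genes included, with 1 point per gene coloured by the call at an adjusted p-value of 0.05 and a black bar at the median of each list. Calls fall on both sides of 0 in most lists, and Creb1 is the called gene furthest to the right, at 0.91.

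**Figure D5:**
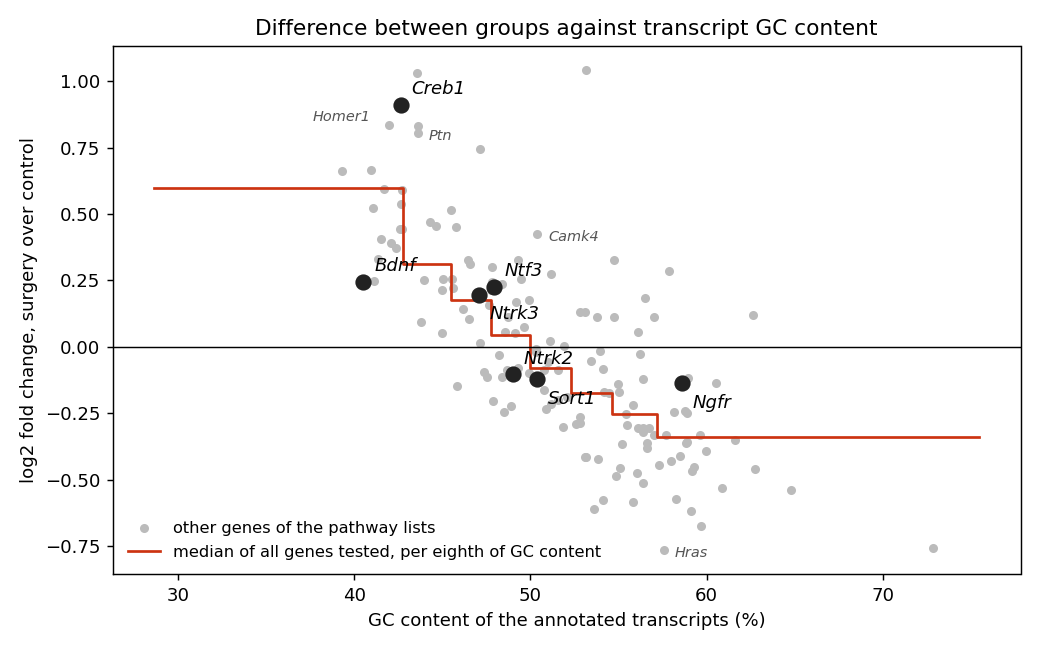
Log2 fold change of surgery over control mice (y axis) against the GC content of the annotated transcripts (x axis, percent) for the 7 genes (black) and the other pathway genes (grey). The red steps are medians over all genes tested and run from 0.60 in the lowest of 8 bins to -0.34 in the highest. Creb1 lies above the step of its bin and Bdnf below it.

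Markers of the cell types that a hippocampal sample holds were measured in all libraries. The summed level of the 11 neuronal markers was 11640 to 11946 CPM in control mice and 10274 to 10688 CPM in surgery mice, with 1 marker higher and 3 lower. For the 8 microglial markers it was 328 to 340 and 320 to 339 CPM, and for the 7 oligodendrocyte markers 5468 to 6335 and 4030 to 6221 CPM. For the 4 markers of oligodendrocyte precursors it was 190 to 202 and 159 to 184 CPM, and for the 5 endothelial markers 181 to 186 and 182 to 240 CPM. The 6 markers of vascular leptomeningeal cells summed to 100.5 and 270.2 CPM in control mice and 137 and 430.0 in surgery mice. Of this, Igf2 made up 33.1 and 199 CPM in control mice and 66.8 and 245 in surgery mice. Each of the 6 was highest in the second surgery mouse. The 5 markers of red blood cells summed to at most 11.2 CPM. Among single markers, 3 of astrocytes, 1 of microglia and 1 of endothelial cells were higher, and 2 of astrocytes and 1 of oligodendrocyte precursors were lower. No marker of these lists was at 0 in every library. The part of cell composition in the differences above was not tested.

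Over the 4 libraries, the genes with the profile closest to that of Creb1 were Nufip2 and Rab30, at a root mean square difference of 0.025 and 0.029 on the log2 scale. Closest to Bdnf were Ddhd1 (0.014) and Retreg1 (0.015), and closest to Ntrk2 were Zwint (0.054) and Clu (0.057). These were taken from 5067, 5064 and 416 protein-coding genes within 2-fold of the mean CPM of Creb1, Bdnf and Ntrk2, and with only 4 libraries the likeness is a description.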

How the data were processed

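The authors enriched poly(A) RNA from the hippocampus of 2 control and 2 surgery mice, sequenced it as paired-end reads, used HISAT for mapping to mm10 and deposited counts of reads per gene and mouse without normalization. The submitters' processing notes list HISAT2 2.1.0, HTSeq 0.6.0, Bowtie2 2.2.3 and TopHat2. The use of strand is not given in the sources used here. The deposited table also holds the authors' own fold changes and p-values, which were not used.

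Tests used edgeR 4.0.16 in R 4.3.3: filterByExpr with a minimum count of 10, TMM, and the quasi-likelihood F test with group as the only term and Benjamini-Hochberg adjustment over 17144 genes. Intervals of log2 fold changes are 95% intervals from the SE and the total degrees of freedom. Exonic lengths, GC contents and overlaps came from GENCODE M21, which holds 29238 of the 29300 identifiers. Trends with length and GC content were fitted per library with mgcv 1.9.3 (basis size 8). DESeq2 1.42.0 and limma 3.58.1 gave alternative tests. The fits were tested on simulated counts. Labels name the mice as separate samples. Replicates differed by more than sampling noise (chi-square over degrees of freedom 13.4 in control and 8.45 in surgery mice).

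Genes named outside the 7 are close relatives, up to 3 called genes with the largest rise and 3 with the largest fall per list at a mean of at least 1 CPM, and for 3 genes the 2 closest profiles. The genes and lists were chosen with earlier results of these data known. Mmp7 and the older symbol Ngfrap1 have no entry in the table. Some genes that this rule names are not reported here. Hap1, Furin, Pcsk1, Crebbp, Ep300, Fos, Arc and Vegfa fall outside the rule and were named after their values were seen.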

Additional observations from a re-analysis of the deposited data

How the results depend on the processing

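With 2 mice per group, the spread was estimated jointly over genes, and p-values measure the spread between these mice only. The filter, normalization, test, length and GC correction and mitochondrial counts were each varied and each mouse was left out, which gave 15 alternatives. Creb1 kept its direction and its call in all 15 and Sort1 its direction and the lack of a call. Bdnf turned to -0.26 with the length and GC correction and also when the replicate block was added (-0.26), and Ngfr turned to 0.22 and 0.21. Crem turned to -0.19 with the correction, to -0.18 with the block added and to -0.097 without the second control mouse. Ntrk3 kept its sign but not its call at 0.18 (DESeq2 size factors), 0.18 (upper quartile), 0.18 (no filter on low counts), 0.12 (length and GC correction) and 0.12 (the same with the replicate block), so that 1 of the 7 genes was higher under each of these and under the DEG threshold.

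Leaving out each of the 4 mice gave log2 fold changes from 0.14 (without the first surgery mouse) to 0.34 for Bdnf, from -0.18 (without the second control mouse) to -0.065 (without the first) for Sort1, from -0.042 to 0.52 for Ntf3 (-0.036 without the second control mouse, -0.042 without the first surgery mouse), from -0.22 to 0.016 for Ntrk2 (0.016 without the second control mouse), from -0.097 to 0.30 for Crem, from 0.17 to 0.21 for Ntrk3 and from -0.48 to 0.12 for Ngfr (0.12 without the first surgery mouse). The number of the 7 genes higher was 1 to 1. Over all genes 1201 to 2025 were higher and 1207 to 2080 lower, and among the other pathway genes 11 to 21 and 19 to 37, with the lowest counts without the second control mouse and 1347 genes lower without the second surgery mouse.

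Over all genes, 2250 were higher and 2199 lower. These counts were 1315 and 1350 without a filter, 249 and 169 with the length and GC correction and 1158 and 386 as DEGs, and 1581 and 1120 with the correction and the replicate block together. With library totals only 2651 were higher and 1812 lower (59.4% higher, against 50.6%). Among the other pathway genes, 13 and 18 were called without a filter, 3 and 0 with the correction and 8 and 3 as DEGs, and 18 and 10 with the correction and the block. With these together, lists with no call under the correction alone had 5 regulators of Bdnf higher, 5 CREB and BDNF response genes higher and 1 lower, 1 p75 adaptor higher and 2 lower, 2 receptors lower and 2 Trk signalling genes lower.

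The replicate numbers are shared by both groups but are not said to mark pairs. The deviations of same-numbered mice had a correlation of 0.22 across genes, and the replicate block alone, with 2655 genes higher and 2626 lower, changed no call among the 7 genes, while 3 of the 13 ligand and processing genes were lower with it, against 0 without. Per kb of the longest transcript in place of all exons, Sort1 (112 CPM per kb in control mice) and Ntrk2 (77.0) still led, and Ngfr was the lowest of the 7. Creb1 then lay above Atf1 in surgery mice (6.51 and 6.87 against 5.25 and 5.01) and Atf1 above Ntf3 in control mice (4.66 and 4.83 against 4.23 and 2.88), so that these ranges no longer overlapped. Ngfr and Ntf3, with 41 to 114 counts per library, had the largest SEs of the 7 genes (0.28 and 0.27). The part of depth in this was not tested.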
